A study of Homo sapiens with 8 samples.

Results

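The members were 7 genes of the count table that encode transcription factors of the intestinal lineage (CDX1, CDX2, HNF4A, GATA6, KLF5, ATOH1 and FOXA2), taken by symbol out of 54261 genes, and all 7 symbols were in the table. Total RNA depleted of ribosomal RNA was sequenced in 8 libraries of human cell lines. The normal group held 2 lines of intestinal epithelium, untreated: NCM460, labelled as a normal intestinal epithelial line, and HIEC6 (HIEC-6), a line known to come from fetal small intestine. The CRC group held 3 untreated colorectal cancer lines, DLD1, HCT116 and HCT8, and the same 3 lines under hypoxia formed the last group. The labels gave neither the oxygen level nor the duration of the hypoxia, and no library carried a gene edit or another agent in its label. Each line was sequenced as 1 library per condition, so the replicates of a group were different cell lines. DLD1 and HCT8 are known from genotyping of cell line collections to come from the same patient, so that they are not independent tumors. The comparison asked whether the lines kept the factors that give intestinal epithelial cells their identity.

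CDX2 and CDX1 are homeobox proteins that specify and maintain intestinal epithelium along the gut. HNF4A is a nuclear receptor that acts with CDX2 at genes of the absorptive cell, GATA6 is a zinc finger factor of endoderm and of proliferating crypt cells, and FOXA2 is a forkhead factor that opens chromatin in endoderm. KLF5 is a Krüppel-like factor of dividing crypt cells, and ATOH1 is the basic helix-loop-helix factor that commits crypt progenitors to the secretory lineage of goblet, Paneth and enteroendocrine cells.

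Total counts ran from 45519306 to 57374239 over the 8 libraries, and 3 counts, used as the floor of detection, corresponded to 0.0523 to 0.0659 CPM. CPM is a gene's count scaled to a library total of 1000000, and the intervals given for single libraries are exact 95% intervals that cover counting error only. Of 12 epithelial markers, all 12 reached 1 CPM in the library labelled NCM460 and in every CRC library, against 5 of 12 in HIEC6, where KRT8 (4290 CPM) and KRT18 (3730 CPM) were high but EPCAM was at 0.176 CPM and CLDN3 at 0. The summed level of 17 mesenchymal and fibroblast markers was 1470 CPM in HIEC6, of which VIM made up 1220 CPM, against 16.4 to 189 CPM in the other libraries, while DCN and LUM were under 1 CPM in HIEC6. The summed level of the 12 epithelial markers was 8020 CPM in HIEC6, most of it KRT8 and KRT18, against 5340 to 14000 CPM in the other libraries. Apart from KRT8 and KRT18, no epithelial marker exceeded 3.47 CPM (CLDN7) in HIEC6. The library labelled NCM460 was closer to HCT116 (Pearson r of log2(CPM + 1) 0.994 across 54261 genes, which are not independent replicates) than to HIEC6 (0.924). The comparison of the CRC and normal groups is also given without that library. The correlations over the 8 libraries include it and are not given without it. The extraction text of the labels names a brain region, so 10 neuronal and glial markers were read as well: they summed to 22.2 to 306 CPM, with MBP (10.8 to 118 CPM) in every library and SYT1 at 68.8 to 159 CPM in the library labelled NCM460 and both HCT116 libraries, while GFAP, AQP4 and NEUROD6 did not exceed 0.0957 CPM anywhere. The part of these markers in the results was not tested.

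DLD1 and HCT8 carried CDX2, HNF4A, GATA6 and KLF5 at high levels and FOXA2 at a low level. HCT116 and the library labelled NCM460 carried CDX2, HNF4A and GATA6 at lower levels and FOXA2 at 8 counts or fewer. HIEC6 had almost no CDX2, HNF4A or FOXA2 but carried KLF5, and its GATA6 was near the level of HCT116 and the library labelled NCM460. CDX1 was seen above the floor in HCT8 alone, and ATOH1 was at or near the floor everywhere.

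**Figure D1:**
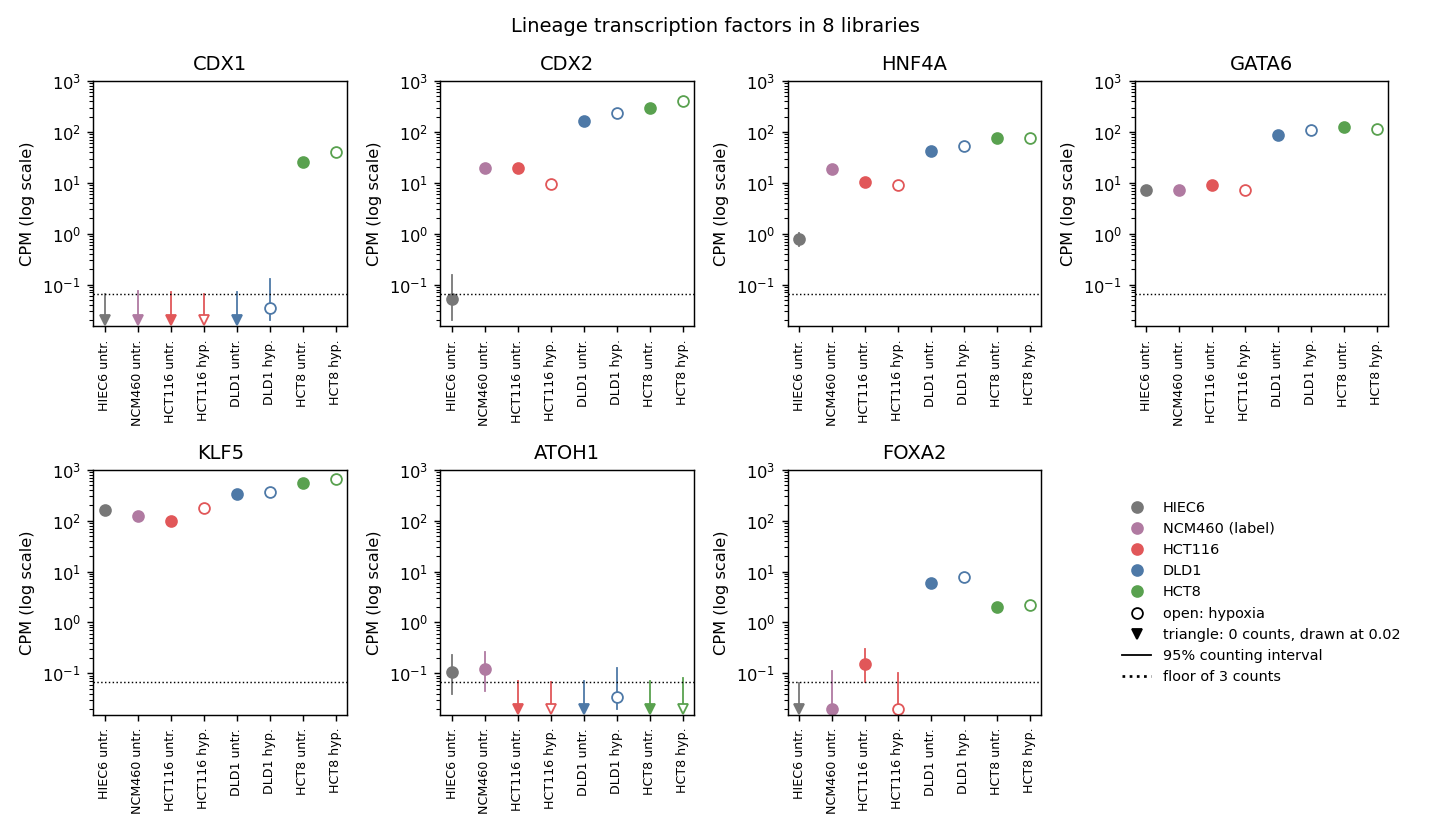
CPM (log axis) of the 7 members in each of the 8 libraries; filled points are untreated, open points hypoxia, triangles stand for 0 counts drawn at 0.02 CPM, vertical lines are exact 95% counting intervals and the dotted line is the highest floor of 3 counts (0.0659 CPM). CDX2 runs from 0.0529 CPM in HIEC6 to 401 CPM in HCT8 under hypoxia, while KLF5 lies between 99.0 and 664 CPM in every library.

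CDX2 (ENSG00000165556; GRCh37 chromosome 13, 28535055 to 28543452, minus strand, 3 exons) was at 163 CPM in untreated DLD1, 19.3 CPM in HCT116 and 295 CPM in HCT8. Under hypoxia the same lines stood at 237, 9.64 and 401 CPM. The library labelled NCM460 was at 19.9 CPM and HIEC6 at 0.0529 CPM, which is 3 counts. The untreated CRC lines thus spanned 15.3-fold, HCT116 and the library labelled NCM460 lay next to each other, and the normal and CRC groups overlapped. CDX1 (ENSG00000113722; chromosome 5, 149546341 to 149564121, plus strand, 3 exons) had 1335 counts in untreated HCT8 (25.4 CPM) and 1806 counts in HCT8 under hypoxia (39.7 CPM). It had 2 counts in DLD1 under hypoxia and 0 in the other 5 libraries. Untreated HCT8 was at least 433-fold higher than untreated DLD1 and at least 442-fold higher than untreated HCT116, with the zero taken at the floor of 3 counts per library.

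HNF4A (ENSG00000101076; chromosome 20, 42984339 to 43061485, plus strand, 10 exons in its canonical transcript) was at 43.1 CPM in untreated DLD1, 10.2 CPM in HCT116 and 75.6 CPM in HCT8. Under hypoxia these were 51.7, 9.06 and 77.5 CPM. Of the normal lines, HIEC6 was at 0.776 CPM (44 counts) and the library labelled NCM460 at 18.9 CPM. The order of the lines was that of CDX2, with HCT8 highest and HIEC6 lowest, over a narrower range: 7.41-fold between the untreated CRC lines.

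GATA6 (ENSG00000141448; chromosome 18, 19749550 to 19782491, plus strand, 7 exons) was at 87.1 CPM in DLD1, 8.88 CPM in HCT116 and 127 CPM in HCT8 without treatment, and at 107, 7.38 and 113 CPM in the same lines under hypoxia. The library labelled NCM460 (7.34 CPM) and HIEC6 (7.14 CPM) were close to HCT116. The normal group lay below all 3 untreated CRC lines, by a small distance in the case of HCT116. GATA6-AS1, a long non-coding RNA whose annotation overlaps the start of GATA6 on the other strand, had 86 counts in DLD1, 7 in HCT116 and 162 in HCT8 without treatment, and 277, 2 and 469 counts under hypoxia, against 409 to 6673 counts of GATA6 in those libraries. The strand setting of the counting was not given in the sources used here, so reads of the overlap cannot be told apart. FOXA2 (ENSG00000125798; chromosome 20, 22561636 to 22566093, minus strand, 2 exons) was at 5.97 CPM in untreated DLD1 and 7.81 CPM under hypoxia, and at 2.01 and 2.17 CPM in HCT8. HCT116 had 8 counts untreated and 1 count under hypoxia, the library labelled NCM460 had 1 count, and HIEC6 had 0. FOXA2 was the only member that was higher in DLD1 than in HCT8 in both conditions.

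KLF5 (ENSG00000102554; chromosome 13, 73629114 to 73651679, plus strand, 4 exons) was high in every library. It stood at 328 CPM in DLD1, 99.0 CPM in HCT116 and 555 CPM in HCT8 without treatment and at 369, 174 and 664 CPM under hypoxia. HIEC6 had 161 CPM and the library labelled NCM460 125 CPM, both above untreated HCT116 and below DLD1 and HCT8. ATOH1 (ENSG00000172238; chromosome 4, 94749904 to 94752115, plus strand, 1 exon) had 6 counts in each of the libraries of the normal group (0.122 CPM in the one labelled NCM460 and 0.106 CPM in HIEC6), 2 counts in DLD1 under hypoxia and 0 counts in the other CRC libraries. The exact upper limit of a count of 0 was 0.072 CPM in DLD1, 0.0706 CPM in HCT116 and 0.0701 CPM in HCT8, all untreated, and the interval of HIEC6 (0.0388 to 0.23 CPM) overlapped these limits.

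Levels of different genes were compared per kilobase of the canonical transcript. In untreated HCT8 KLF5 had 166 CPM per kb, CDX2 85.5, GATA6 35.0, HNF4A 16.3, CDX1 14.3 and FOXA2 0.793 CPM per kb. KLF5 was also the highest member per kb in HIEC6 (48.1), followed by GATA6 (1.97) and HNF4A (0.167). In untreated HCT116 KLF5 had 29.6 CPM per kb, CDX2 5.61, GATA6 2.45 and HNF4A 2.20. The order of KLF5, CDX2, GATA6 and HNF4A was the same in the 6 CRC libraries apart from their distances, HIEC6 departed from it by its lack of CDX2, and the library labelled NCM460 by HNF4A (4.06 CPM per kb) above GATA6 (2.03).

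The lines were compared with edgeR's quasi-likelihood test over the 6 CRC libraries, 2 per line, with treatment as a term, for every gene that reached 10 counts in 2 or more of them. Of 21045 genes tested, 39% differed between lines at a Benjamini-Hochberg adjusted p under 0.05. CDX2, HNF4A, GATA6 and KLF5, which passed the filter in every line, all differed (adjusted p of 0.000153, 0.000213, 5.02e-05 and 0.00468). FOXA2 passed the filter through DLD1 and HCT8 alone and CDX1 through HCT8 alone, so the direction against HCT116 was fixed by the filter and their calls are not counted below, and ATOH1 did not pass. DLD1 was higher than HCT116 by 3.59 ± 0.342 (log2, SE) in CDX2, 2.08 ± 0.228 in HNF4A, 3.36 ± 0.242 in GATA6, 1.16 ± 0.282 in KLF5 and 6.18 ± 0.745 in FOXA2. All but FOXA2 are members that passed the filter in every line, and these were called higher, where 15.1% of all genes tested were called higher in DLD1 and 16.9% lower (edgeR adjusted p from 3.71e-05 to 0.0158). KLF5 lost its call without untreated DLD1 (0.92, adjusted p = 0.117). CDX1 had 2 counts in 1 of these 4 libraries and 0 in the others.

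HCT8 was higher than HCT116 by 4.24 ± 0.352 (log2, SE) in CDX2, 2.62 ± 0.232 in HNF4A, 3.52 ± 0.244 in GATA6, 1.81 ± 0.286 in KLF5 and 4.30 ± 0.718 in FOXA2. CDX2, HNF4A, GATA6 and KLF5 were called higher (edgeR adjusted p from 3.72e-05 to 0.00253), where 13.1% of all genes were called higher in HCT8 and 13.9% lower. Between HCT8 and DLD1 none of these 4 members was called, where 8.8% of all genes were called higher in HCT8 and 6.86% lower. The differences between HCT8 and DLD1 were 0.65 ± 0.307 in CDX2 (adjusted p = 0.194), 0.55 ± 0.219 in HNF4A (0.133), 0.16 ± 0.22 in GATA6 (0.682), 0.65 ± 0.277 in KLF5 (0.155) and -1.88 ± 0.565 in FOXA2 (0.0589). These p-values do not show that DLD1 and HCT8 had equal levels: without untreated HCT116, the differences in CDX2, HNF4A, KLF5 and FOXA2 passed the threshold at the same size (0.66, 0.54, 0.65 and -1.86, with adjusted p of 0.0178, 0.0431, 0.0184 and 0.00648), and they also passed without the hypoxia library of HCT116. The 2 libraries of a line differed in treatment and were single cultures. With treatment as a term, the test measures how far their difference varied between lines, not the spread between cultures of 1 line. Between the CRC lines 8 of 12 epithelial, 9 of 15 mesenchymal and 3 of 5 neuronal or glial markers tested differed too, and their part in these results was not tested.

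**Figure D2:**
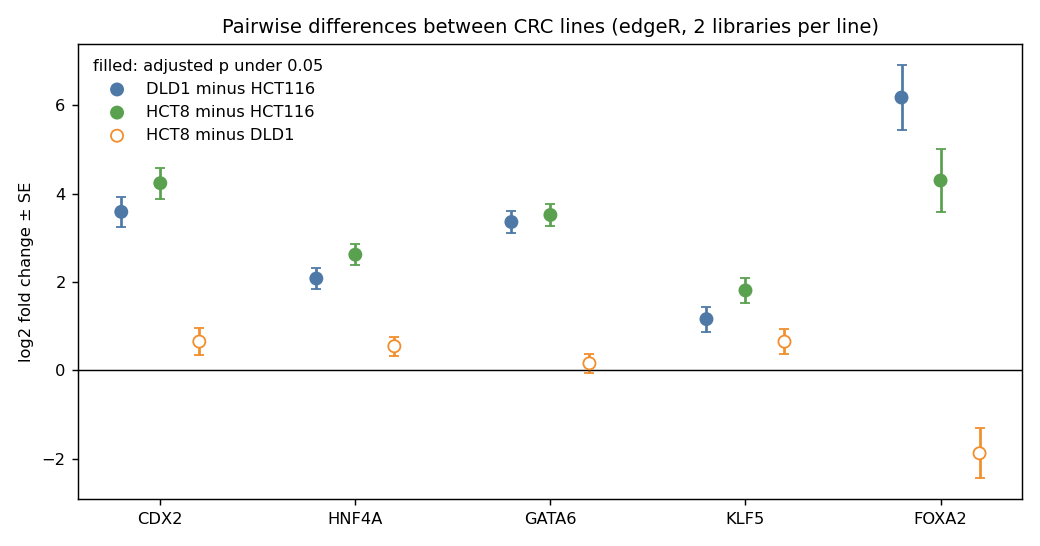
Log2 fold change between pairs of CRC lines (vertical axis, ± SE, edgeR with treatment as a term, 2 libraries per line) for the 5 members above the floor in more than 1 line; filled points have an adjusted p under 0.05, and FOXA2 passed the filter on low counts through DLD1 and HCT8 alone. For CDX2, HNF4A, GATA6 and KLF5 the differences against HCT116 lie above 0, from 1.16 to 4.24. Those of FOXA2 (6.18 and 4.30) had their direction fixed by the filter. The 5 differences between HCT8 and DLD1 lie between -1.88 and 0.65, none of them called.

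The sequences just before the transcription starts are shown for CDX2 and HNF4A, the pair of members whose levels ran most nearly together over the 8 libraries (r = 0.989 on log2(CPM + 1), a description over libraries that include pairs of the same line). They are the 250 bases upstream of the start in RefSeq's table (GRCh38.p14), which gave windows for 5 of the 7 members, and each window matched GRCh37 exactly once. Capitals mark letters of 6 short motifs searched on both strands. The motif of CDX proteins was searched as TTTATNG and the motif of GATA factors as GATAA. For HNF4 the letters searched were CAAAGTCC and for forkhead (FOX) proteins TGTTTNC. HNF1 was searched with the letters GTTAAT and the Krüppel-like and SP factors (KLF/SP) with CCGCCC. Matches of different motifs do not overlap in these windows. The first window lies outside the gene at chr13:28543453-28543702 (minus strand), the second before the upstream start of HNF4A at chr20:42984089-42984338 (plus strand), and the third before its downstream start at chr20:43029629-43029878, in an intron of the transcripts that begin at the upstream start.
CDX2 upstream: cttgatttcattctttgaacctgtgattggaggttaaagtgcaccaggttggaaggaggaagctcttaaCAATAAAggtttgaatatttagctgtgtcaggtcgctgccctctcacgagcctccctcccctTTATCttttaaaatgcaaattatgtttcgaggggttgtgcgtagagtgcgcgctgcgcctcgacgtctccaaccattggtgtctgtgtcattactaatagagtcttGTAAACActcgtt
HNF4A upstream start: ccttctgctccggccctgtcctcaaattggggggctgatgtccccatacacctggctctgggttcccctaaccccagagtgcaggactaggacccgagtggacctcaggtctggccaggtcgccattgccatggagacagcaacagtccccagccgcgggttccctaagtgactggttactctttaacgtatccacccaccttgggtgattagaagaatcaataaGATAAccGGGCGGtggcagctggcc
HNF4A downstream start: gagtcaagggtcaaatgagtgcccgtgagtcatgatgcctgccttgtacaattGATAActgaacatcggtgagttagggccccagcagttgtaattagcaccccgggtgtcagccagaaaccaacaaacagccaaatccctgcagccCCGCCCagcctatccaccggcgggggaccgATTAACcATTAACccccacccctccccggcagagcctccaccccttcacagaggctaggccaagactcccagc
The CDX2 window held a CDX match whose first base lay at -181 from the start, a GATA match at -119 and a FOX match at -13. In HNF4A the upstream window held a GATA match at -25 and a KLF/SP match at -18, and the downstream window a GATA match at -197, a KLF/SP match at -103 and HNF1 matches at -73 and -66. Of 35116 promoter windows of the same length, 8.93% held the CDX motif, 20.4% GATA, 1.02% HNF4, 15.5% FOX, 6.23% HNF1 and 42.6% KLF/SP. KLF5 held a CDX match before its upstream start (-195) and KLF/SP matches before its downstream start (-209 and -48), and the windows of GATA6 and ATOH1 held none of the 6 motifs. A match is a description of the letters and not a binding site.

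HIEC6 was set against the mean of the 3 untreated CRC lines without a test, since it was 1 library. The counting intervals of these ratios cover the count of HIEC6 alone. They take the CRC mean as fixed and leave out its counting error and the spread between the CRC lines. The CRC mean of CDX2 was 159 ± 138 CPM (SD, n = 3 lines), 3010 times the level of HIEC6 (counting interval 1030 to 14600), and that of HNF4A was 43.0 ± 32.7 CPM, 55.4 times the level of HIEC6 (41.2 to 76.2). GATA6 was at 74.2 ± 60.0 CPM in the CRC lines, 10.4 times HIEC6 (9.43 to 11.5), and FOXA2 at 2.71 ± 2.97 CPM, at least 51.3 times HIEC6 at its floor. HIEC6 was at least 4-fold lower in 4 of the 5 members tested (CDX2, HNF4A, GATA6 and FOXA2), where 20% of all 19964 genes tested were. CDX2 and FOXA2, at 3 and 0 counts in HIEC6, passed the filter through other libraries. They could only be lower in HIEC6, so the number of members is a description. Against HCT116 alone the log2 ratio was 0.31 in place of 3.38 for GATA6, 8.51 in place of 11.55 for CDX2 and 3.72 in place of 5.79 for HNF4A, and FOXA2 had 8 counts in HCT116 against 0 in HIEC6. The low level of GATA6 and FOXA2 in HIEC6 was thus seen against DLD1 and HCT8. KLF5 was 2.03 times higher in the CRC mean (1.99 to 2.07), but against HCT116 alone HIEC6 was the higher one (log2 ratio -0.70). The median log2 ratio over 17544 genes was 0.32 on the CPM scale and 0.0292 after TMM scaling, so relative to the other genes these folds were smaller by that shift. Low epithelial markers other than KRT8 and KRT18, and a high mesenchymal sum made up mostly of VIM, went with these values in HIEC6. Their part was not tested. In RNA of a whole culture, fewer expressing cells and less RNA per cell cannot be told apart.

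Between the library labelled NCM460 and untreated HCT116, CDX2 differed by 0.0449 on the log2 scale of CPM (-0.0833 to 0.173), on 981 and 1010 counts. HNF4A was higher in the library labelled NCM460 by 0.89 (0.732 to 1.04), KLF5 by 0.34 (0.287 to 0.394), and GATA6 was lower (-0.28, from -0.478 to -0.0736). FOXA2 had 1 and 8 counts, a log2 ratio of -2.91 with an interval of -8.38 to -0.0141, and was the only member past 2-fold among the 5 tested, where 15.7% of the genes tested were. CDX1 had 0 counts in both libraries. These intervals cover counting error only and say nothing of the spread between cultures.

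The CRC and normal groups were compared with the same edgeR test over the 5 untreated libraries. None of the 19964 genes was called (0%, with 542 at an unadjusted p under 0.05; 143 were called by DESeq2), and so none of the 5 members tested, CDX1 and ATOH1 having failed the filter on low counts. The log2 fold changes were 3.83 ± 2.28 (SE) for CDX2, 1.97 ± 1.44 for HNF4A, 3.13 ± 1.13 for GATA6, 0.95 ± 0.704 for KLF5 and 7.67 ± 2.3 for FOXA2, each with an edgeR adjusted p of 0.999. The median over all genes tested was -0.0048. FOXA2 entered this test through DLD1 and HCT8 alone (306 and 106 counts, against 0 and 1 in the normal group), so its fitted fold is no bound, and its call in DESeq2 (adjusted p = 0.0331) is given as a description. The spread within each group was wide: CDX2 was 10.0 ± 14.1 CPM (SD, n = 2 lines) in the normal group and HNF4A 9.82 ± 12.8 CPM. Without the library labelled NCM460, HIEC6 alone gave 11.18 ± 2.63 for CDX2 (adjusted p = 0.231), 5.48 ± 1.52 for HNF4A (0.255), 3.07 ± 1.67 for GATA6 (0.433), 0.72 ± 0.959 for KLF5 (0.727) and 10.1 ± 3.78 for FOXA2 (0.325), where the lone library is assumed to vary like the CRC lines. Without HIEC6 the values were 2.84, 1.04, 3.19, 1.24 and 6.80.

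Hypoxia was compared with no treatment in the 3 CRC lines. The same line stands in both groups, and without that pairing edgeR called 0% of 21045 genes (607 at an unadjusted p under 0.05; 55 called by DESeq2), with member values from 0.0732 ± 1.09 (GATA6) to 0.66 ± 3.3 (CDX1, on HCT8). With the cell line as a block 0.95% of the genes were called, 156 higher and 44 lower under hypoxia, and none of the 6 members tested was among them. The blocked values were 0.78 ± 0.49 for CDX1 (edgeR adjusted p = 0.447), 0.14 ± 0.255 for CDX2 (0.815), 0.18 ± 0.179 for HNF4A (0.645), 0.0873 ± 0.181 for GATA6 (0.84), 0.55 ± 0.228 for KLF5 (0.253; unadjusted 0.043) and -0.0939 ± 0.493 for FOXA2 (0.941). The description labels of the untreated and the hypoxia CRC libraries begin with different codes, whose meaning is not stated, and whatever the codes mark cannot be told apart from treatment.

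Within each line the response was read from 1 library against 1, with no test. CDX2 was higher under hypoxia in DLD1 (log2 ratio of CPM 0.538, counting interval 0.498 to 0.577) and in HCT8 (0.445, 0.414 to 0.476), and lower in HCT116 (-1.0, from -1.16 to -0.851). KLF5 was higher in all 3 lines, by 0.17 in DLD1, 0.816 in HCT116 and 0.258 in HCT8. GATA6 had log2 ratios of 0.296, -0.267 and -0.17 in DLD1, HCT116 and HCT8, and HNF4A of 0.263, -0.171 and 0.0369, with an interval that holds 0 in HCT116 and HCT8. FOXA2 was 0.386 in DLD1 and 0.111 in HCT8, and CDX1 was 0.646 in HCT8. The HCT116 hypoxia library stood apart in scale: the median log2 ratio over 18399 genes was -0.35 on the CPM scale and 0.00667 after TMM scaling. On the TMM scale CDX2 in HCT116 was at -0.65, KLF5 at 1.17, HNF4A at 0.19 and GATA6 at 0.09, so the sign of HNF4A and GATA6 in HCT116 turned with the scale. Past 2-fold on the CPM scale were 0 members in DLD1 and HCT8, where 14.9% and 21.3% of all genes were. In HCT116 CDX2 (not on the TMM scale) and FOXA2 (on 1 and 8 counts) were past 2-fold, where 33.9% of all genes were on the CPM scale. The shares of all genes were not computed on the TMM scale.

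**Figure D3:**
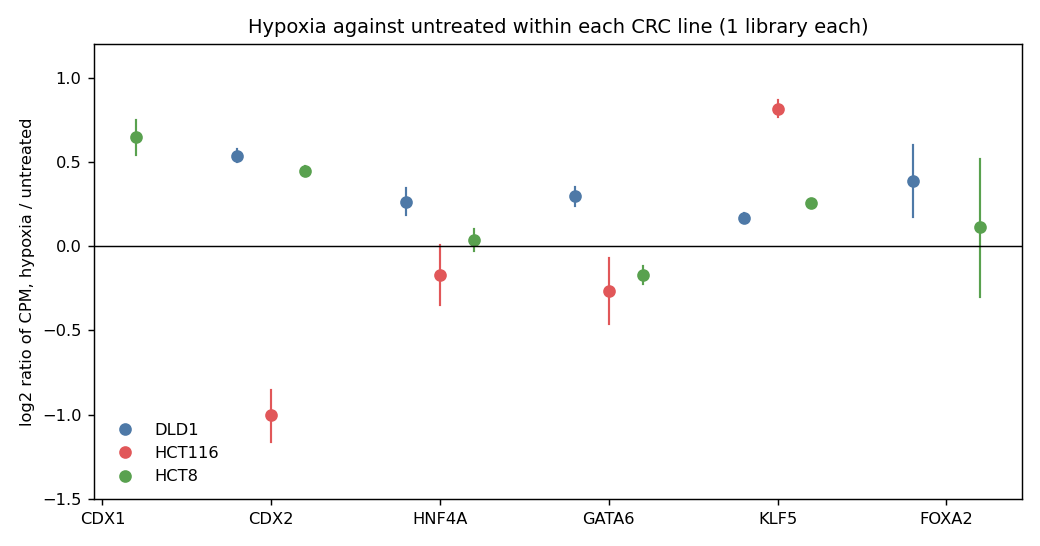
Log2 ratio of CPM, hypoxia over untreated (vertical axis), for 6 members in each CRC line, 1 library per condition; vertical lines are exact 95% counting intervals, and pairs with 3 counts or fewer in a library are not drawn. KLF5 lies above 0 in all 3 lines, and CDX2 lies above 0 in DLD1 and HCT8 and at -1.0 in HCT116.

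The split between lines extended to other factors of the intestinal epithelium, a list of 25 genes chosen with earlier results of these data known. Of the 20 tested, 14 differed between lines (39% of all genes did), and DLD1 was called higher than HCT116 in 8 and lower in 4, where ISX, ASCL2 and PROX1, at or near 0 in HCT116, had passed the filter through DLD1 and HCT8 and could only be higher. FOXA1, a paralog of FOXA2, was at 183 and 241 CPM in untreated and hypoxic DLD1, 214 and 168 CPM in HCT8, and 1.55 and 1.43 CPM in HCT116 (DLD1 minus HCT116 6.93 ± 0.321, log2, SE). ASCL2, a factor of intestinal stem cells, was at 157 and 196 CPM in DLD1, 89.8 and 82.7 CPM in HCT8 and at most 0.126 CPM in HCT116. VDR, the vitamin D receptor, was higher in DLD1 than in HCT116 by 2.76 ± 0.3. ISX, a homeobox gene known as a CDX2 target, had 42.8 CPM in untreated HCT8, 4.74 CPM in DLD1 and 0 in HCT116.

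Some factors ran the other way. GFI1, a factor downstream of ATOH1, had 13.4 CPM in untreated HCT116, 3.55 CPM in DLD1 and 1.12 CPM in HCT8 (HCT8 minus HCT116 -3.50 ± 0.424), and TCF7L2, the nuclear partner of beta-catenin, was lower in DLD1 by 1.32 (-1.32 ± 0.251) and in HCT8 (-1.13 ± 0.25). SOX9, a crypt factor, lay between 247 and 549 CPM outside HIEC6 and stood at 2.15 CPM in HIEC6. It was called lower in HCT8 than in HCT116 (-1.0 ± 0.268) and was not called between DLD1 and HCT116 (-0.27 ± 0.267). HNF4G, the paralog of HNF4A, was at 2.13 to 5.28 CPM in all libraries but HIEC6, where it had 0 counts, and GATA5 was at 1.87 CPM in HIEC6 and at most 0.0203 CPM elsewhere. GATA4 did not exceed 0.0203 CPM. HIEC6 thus had the lowest level of SOX9 and HNF4G and the highest of GATA5 among the 8 libraries. It did not lack the list as a whole: 11 of the 25 factors reached 1 CPM in HIEC6, against 14 to 19 in the other libraries. FOXA1 was at 12.3 CPM in HIEC6, above untreated HCT116 (1.55 CPM) and the library labelled NCM460 (2.11 CPM). KLF4 stood at 35.8 CPM, VDR at 21.9 CPM and ELF3 at 64.9 CPM in HIEC6, the last near untreated HCT116 (65.0 CPM).

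Of 20 intestinal genes known as targets of CDX2 and HNF4A, 12 were under 1 CPM in every library, among them the absorptive cell genes SI, APOB, APOA4 and FABP2, which had 0 counts throughout. The number is a description, since the share of all genes under 1 CPM throughout was not computed. Most genes of the table were low: of 54261, 21045 passed the filter on low counts in the CRC libraries. The number of targets at 1 CPM or more was 5 in untreated DLD1, 7 in HCT8, 0 in HCT116, 1 in the library labelled NCM460 (LCT) and 1 in HIEC6 (MUC13). Of 12 targets tested, 9 differed between the CRC lines, where 39% of all genes did. CDH17, VIL1, TFF3, GUCY2C, LGALS4 and KRT20 were at or near 0 in HCT116 and passed the filter through DLD1 or HCT8, so they could only be higher in those lines and the count is a description. CDH17, the intestinal cadherin, was at 144 and 208 CPM in untreated and hypoxic DLD1, 134 and 188 CPM in HCT8, and at most 0.108 CPM in HCT116, HIEC6 and the library labelled NCM460. VIL1, which encodes villin of the brush border, was at 259 and 425 CPM in HCT8 against 8.03 and 18.4 CPM in DLD1 (HCT8 minus DLD1 4.63 ± 0.335) and at most 0.235 CPM in HCT116. The library labelled NCM460 had CDX2 at 19.9 CPM with CDH17 at 0.0813 CPM and VIL1 at 0.0813 CPM.

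**Figure D4:**
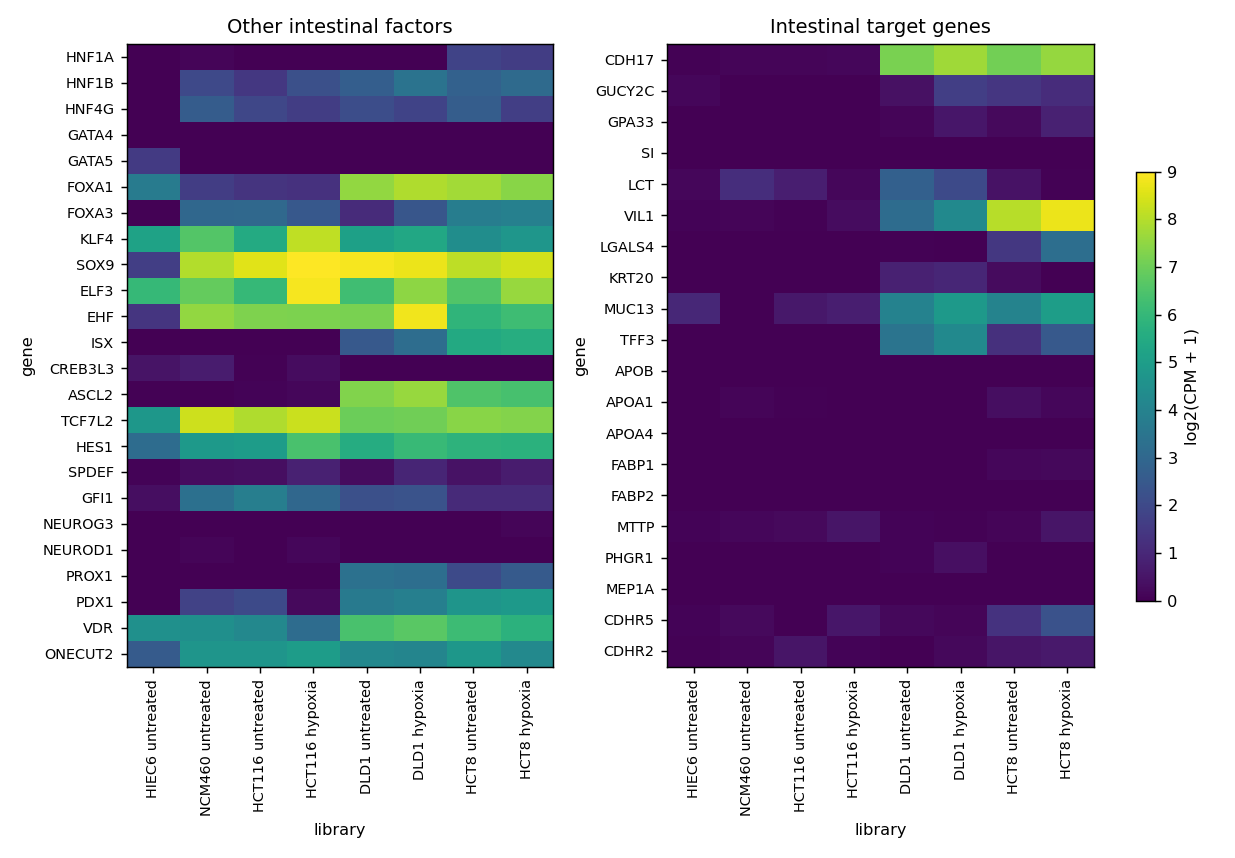
Heat map of log2(CPM + 1) (colour, 0 to 9, values above 9 drawn as 9) for other intestinal factors (left) and 20 intestinal target genes (right), genes in rows and the 8 libraries in columns. DLD1 and HCT8 are bright for FOXA1, ASCL2 and CDH17, and HCT116 and the library labelled NCM460 are dark for them. HIEC6 is dark for ASCL2 and CDH17 and has FOXA1 at 12.3 CPM. In every library 12 target genes stay under 1 CPM, a description without the share of all genes.

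ATOH1 was at or near the floor. Of 10 genes downstream of it in secretory cells, 5 were under 1 CPM in every library. Among them were MUC2, the main mucin of goblet cells (at most 0.195 CPM), and CHGA, a marker of enteroendocrine cells (0 counts). AGR2, TFF3, GFI1, DLL4 and SPINK4 reached 1 CPM in 1 or more libraries. The share of all genes under 1 CPM throughout was not computed, so this number is a description. Of all 54261 genes, 21045 passed the filter on low counts in the CRC libraries. Of the 7 tested, 4 differed between the CRC lines, where 39% of all genes did. TFF3, AGR2 and SPINK4, at 0 to 0.0766 CPM in HCT116, passed the filter through DLD1 and HCT8 and so could only be higher there, and GFI1 was lower in both than in HCT116. AGR2, a disulfide isomerase of goblet cells, was at 218 and 246 CPM in untreated and hypoxic DLD1 and 146 and 181 CPM in HCT8, where ATOH1 had 0 to 2 counts, against at most 0.0766 CPM in HCT116. In the CRC against normal comparison and in the unblocked hypoxia comparison none of the genes of these lists was called, and with the cell line as a block none of the 3 lists of intestinal genes held a called gene, while KRT19 among the epithelial and FN1 among the mesenchymal markers were called higher under hypoxia.

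The genes whose pattern over the 8 libraries was most like each member were taken by Pearson r of log2(CPM + 1) among 13295 genes with at least 5 CPM in a library, as a description: the libraries include pairs of the same line and 2 lines of 1 patient. For HNF4A the first was CDX2 itself (0.9887), followed by ATP8B1 (0.9878) and LRRC1 (0.9870). For CDX2 they were LOC101929567 (0.9895), TACC2 (0.9889) and MBD1 (0.9889), and for CDX1, at 0 outside HCT8 but for 2 counts, LOC105377675 (0.9999), JSRP1 (0.9998) and PYCARD (0.9998). GATA6 ran with MIR196A1 (0.9991), ZNF141 (0.9976) and FNIP2 (0.9974), KLF5 with SCARB2 (0.9877), NPIPB4 (0.9772) and MLLT3 (0.9758), and FOXA2 with PRICKLE2 (0.9950), SNORD3B-2 (0.9941) and BATF (0.9939). Among the members themselves GATA6 and KLF5 had an r of 0.926, CDX2 and GATA6 of 0.901, and GATA6 and FOXA2 of 0.895. With a pseudocount of 0.1 CPM in place of 1, 0 to 2 of the 3 genes named for each member stayed among its first 3.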

How the data were processed

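The 8 libraries were made from ribosomal RNA-depleted total RNA of cell lines, and the authors deposited 1 table of raw counts per gene, without normalization (8 columns, all used; 0 left aside). The study's methods name GRCh37.p13 as genome, whereas the submitters' processing notes list HISAT2 2.0.4 and GRCh38; no position was read from the counts. The counter, strand setting and treatment of reads with several matches were not given in the sources used here. Sample labels gave line, treatment and replicate number.

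CPM was taken from column totals. Tests used edgeR 4.0.16 (glmQLFit, glmQLFTest, TMM) in R 4.3.3 for every gene that reached 10 counts in 2 or more of the libraries fitted, with Benjamini-Hochberg adjustment over all genes tested and a threshold of 0.05. The SE is the size of the log2 fold change over the root of F. Alternatives were DESeq2 1.42.0, limma-trend (limma 3.58.1), other normalizations and filters, all 8 libraries in 1 fit, the replicate block and each library left out. In the hypoxia comparison the replicate number is the cell line: libraries of 1 line deviated together from the means of their groups (r of 0.836, 0.857 and 0.82), against -0.611 to -0.0599 between lines. In the comparison with normal lines the number joins different lines. Since nothing tells of separate cultures beyond the labels, p-values measure the spread between these libraries that the terms of each fit leave over. Intervals are exact (Poisson, or Clopper-Pearson on pairs of counts, SciPy 1.17.1) at 95%. The procedure was also run on simulated counts, which were set to vary less between libraries than the data did. The coefficient of variation was 0.8676 in the fit of CRC against normal lines, 0.8758 in the unblocked hypoxia fit and 0.295 in the fit of lines. The simulation therefore does not show how many real differences these fits would find.

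The members and lists were chosen with earlier results of these data known. Named genes are the members, the genes of the lists, the 3 genes most like each member and genes on the other strand within 2 kb. 1 gene of the list of other factors is counted but not reported here by name. Positions are from GENCODE release 44 lifted to GRCh37, and promoter sequences from RefSeq.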

Additional observations from a re-analysis of the deposited data

Results flagged for a closer look

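CDX2, GATA6 and FOXA2 had log2 ratios of hypoxia to untreated CPM that lay on opposite sides of 0 in different CRC lines, with counting intervals that left out 0. For CDX2 they were 0.538 in DLD1, 0.445 in HCT8 and -1.0 in HCT116. For GATA6 they were 0.296 in DLD1, -0.267 in HCT116 and -0.17 in HCT8. For FOXA2 they were 0.386 in DLD1 and -3.08 in HCT116, the latter on 1 and 8 counts. Each value compares 1 library with 1 library, and the difference between lines was not tested. After TMM scaling CDX2 in HCT116 stood at -0.65 and GATA6 in HCT116 at 0.09.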

How the results depend on the processing

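Over the alternatives run, CDX2, HNF4A, GATA6 and KLF5 differed between the CRC lines in every fit, and every log2 fold change of theirs against HCT116 kept its sign and its call except KLF5 in DLD1 (0.92 without CRC replicate 1). The number of genes that differed between lines was 8208; leaving out 1 library gave 4547 to 10147. In the comparison with the normal lines edgeR and limma called 0 genes under every setting, the replicate block and each library left out included, and DESeq2 called 143. For hypoxia, DESeq2 called 55 genes, the replicate block 200 and the replicate block with DESeq2 1666, and the block with 1 line left out 6 to 738 (292 without DLD1, 738 without HCT116, 6 without HCT8). The replicate block changed no call of a member.

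Signs of member values under hypoxia were unstable. FOXA2 turned to -0.37 in limma, -0.0939 with the block and -0.17 with the block in DESeq2. With the block and 1 line left out, CDX2 reached -0.0845 (without DLD1) and -0.0285 (without HCT8), GATA6 -0.0341 (without DLD1) and FOXA2 -0.65 and -0.28. Without the block, leaving out 1 library gave lowest values of -0.24 for CDX2, -0.33 for HNF4A, -0.45 for GATA6, -0.0348 for KLF5 and -1.40 for FOXA2, and highest values of 1.18, 0.76, 0.62, 0.92 and 1.75. Between HCT8 and DLD1, GATA6 ranged from -0.0337 to 0.35 without 1 library. FOXA2 between these lines passed in DESeq2 (adjusted p = 0.0209) and without the filter (0.00611), and KLF5 on library totals (0.0464). On the TMM scale GATA6 in HCT116 under hypoxia was 0.0897. On the CPM scale KLF5 against HIEC6 was -0.70 with HCT116 alone. The cause was not tested. Values at 0 to 8 counts (CDX1 outside HCT8, ATOH1, FOXA2 in HCT116 and the normal lines, CDX2 in HIEC6) are limited by depth.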
